A study of Mus musculus with 48 samples.

Results

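Gene expression in the frontal cortex (FCT) was compared between 3 saline-treated mice that had flown in space (FLT-SAL) and 3 saline-treated ground controls (GC-SAL). These 6 areas of illumination (AOIs, the tissue areas whose probe tags are released by UV light and counted) were all the FCT areas of saline mice among 48 AOIs of the series, and every one of 15782 genes was compared, the negative-control probes excepted. The mice were male C57BL/6, 10 weeks old at launch. FLT-SAL mice spent 35 days on the International Space Station and reached the laboratory within 20 h of splashdown, whereas GC-SAL mice spent 35 days in flight hardware cages on the ground under a protocol that began 3 days later. Both groups received saline in place of BuOE (MnTnBuOE-2-PyP5+), a manganese porphyrin that mimics superoxide dismutase, which FLT-BuOE and GC-BuOE mice received at 1 mg/kg. Each mouse gave 1 FCT AOI from a fixed left hemibrain, so n = 3 mice per group throughout. The areas were chosen under stains for GFAP (astrocytes), Iba1 (microglia) and nuclei. All 3 sections of a group lay on 1 slide, so slide and group cannot be told apart. An AOI mixes all cell types of its area, and a higher share of cells of one type cannot be told apart from more RNA per cell.

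The FLT-SAL areas covered 198761 square μm with 568 to 602 nuclei and gave 991160 to 1579380 deduplicated probe counts, and the GC-SAL areas covered 146259 square μm with 400 to 472 nuclei and gave 601288 to 897280. Values below are Q3-normalized counts, for which each AOI was scaled by the authors to an upper quartile of 40.02. On this scale the negative-control probes, designed against no mouse sequence, stood at 15.2 to 18.0 in FLT-SAL and 12.8 to 15.9 in GC-SAL, so the deeper group also had the higher background. The part of area in the differences was not tested, depth entered 1 fit as a covariate, and background was subtracted in another. No member of the lists for neurons of the cortex (10 genes expressed by all neurons and 10 of excitatory neurons) was near background, against 13.4% of all genes. These lists do not tell frontal cortex from other regions with neurons.

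The frontal cortex is built of layered excitatory neurons, inhibitory interneurons, astrocytes and the oligodendrocytes that make myelin. Firing of its neurons induces a set of immediate early genes within minutes, among them transcription factors such as Npas4 and Egr3 and effectors such as Arc, which acts at synapses. Corticosteroids act on the same tissue through the glucocorticoid receptor, whose known targets include Sgk1, Fkbp5, Tsc22d3 and the metallothioneins.

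In FLT-SAL against GC-SAL, 8 of 15782 genes (0.0507%) passed both thresholds, an adjusted p under 0.05 and a change of more than 1.5-fold (limma on log2(Q3-normalized count + 1), Benjamini-Hochberg). Of these, 5 (0.0317%) were higher in flight, namely Ptgds, Coro6, Sgk1, Mt1 and Nsg1, and 3 (0.019%) were lower, namely Arc, Col6a1 and Scg2. At an unadjusted p below 0.05, 894 genes (5.66%) differed, 582 higher (3.69%) and 312 lower (1.98%). The 3 flight mice lay wholly above or below the 3 ground mice for 1912 genes (12.1%), 1170 of them higher (7.41%) and 742 lower (4.7%). The smallest two-sided p of an exact permutation test is 0.1 for 3 mice against 3, so no single gene could pass one. The median log2 fold change over all genes was 0.03, and 55.8% of genes had a value above 0. With edgeR and TMM scaling the median was -0.00082 and the share 49.8%.

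The count depended on single mice and on the test. Without FLT-SAL mouse 2 or without GC-SAL mouse 3 only Ptgds and Arc were still called, without FLT-SAL mouse 1 there were 5 calls, without FLT-SAL mouse 3 there were 13, and without FLT-BuOE mouse 1 or mouse 3, which enter the estimate of spread, there were 18. The fit with depth as a covariate called 3 genes, and there Arc was not among them (adjusted p = 0.503). On whole probe counts, edgeR's quasi-likelihood test with TMM scaling called 26 genes (0.165%) that included all 8, with 11 higher (0.0697%) and 15 lower (0.0951%) in flight, so that 42.3% were higher against 62.5% of the limma calls. After subtraction of the background, limma called 4 genes, 1 higher and 3 lower.

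**Figure D1:**
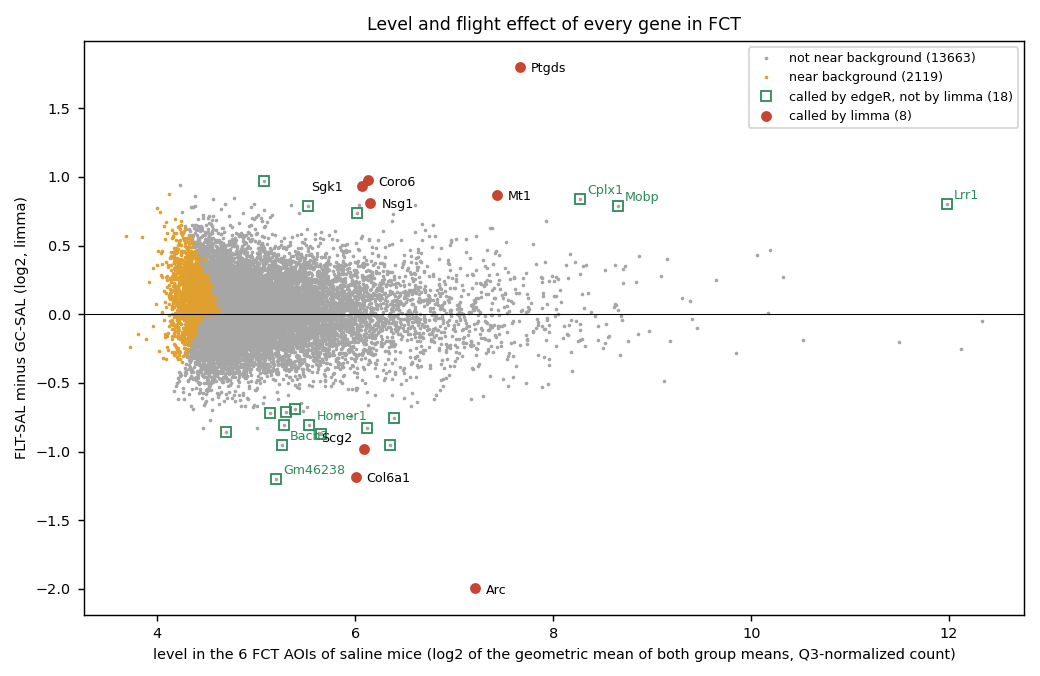
Each point is 1 of 15782 genes in FCT of saline mice, with the level on the x axis (log2 of the geometric mean of both group means, in Q3-normalized counts) and FLT-SAL minus GC-SAL on the y axis (log2, limma). Red points are the 8 genes called by limma, green squares the 18 called by edgeR only, and orange points the 2119 genes near background.

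Of the genes that neuronal activity induces, Arc and Scg2 fell, and no other member of the lists used here passed adjustment in limma. Arc, which regulates the trafficking of glutamate receptors and is induced by synaptic activity (chr15:74669083-74672570, GRCm38, as for all gene positions here), was counted at 89.2, 61.5 and 66.6 in the 3 FLT-SAL mice and at 364, 176 and 373 in the 3 GC-SAL mice. Every flight mouse was below every ground mouse, and the lowest ground mouse stood well below the other two. Arc fell by 2.00 on the log2 scale (SE 0.23, adjusted p = 6.85e-07). Scg2, or secretogranin II, a protein of the dense-core vesicles that store neuropeptides (chr1:79434669-79440120), was counted at 54.3, 35.7 and 55.8 in flight and at 96.9, 86.3 and 102 on the ground. These groups did not overlap either, and Scg2 fell by 0.98 (SE 0.17, adjusted p = 0.00327).

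Homer1, a scaffold that links metabotropic glutamate receptors to the postsynaptic density (chr13:93299635-93405129), was counted at 30.3, 40.7 and 32.8 in flight and at 72.7, 45.5 and 68.3 on the ground. Its log2 fold change of -0.81 passed edgeR (adjusted p = 0.043) and not limma (adjusted p = 0.147). At an unadjusted p below 0.05, 6 of 28 measured effector genes induced by activity were lower and 1 was higher. Over all genes these shares were 1.98% and 3.69%. The median log2 fold change of the 28 was -0.09, with 10 genes above 0 and 18 below. The other 3 lower members were Nptx1 and Nptx2, secreted pentraxins of excitatory synapses, and Inhba, a subunit of activin. Inhba stood at 1.14 times the negative control in flight. The summed level of the 28 genes was 1157 to 1184 in flight and 1423 to 1710.4 on the ground. Without Arc it was 1083.5 to 1117.5 and 1247 to 1337, and without Arc, Nptx1 and Scg2 the groups overlapped, at 811 to 879.9 and 855 to 976.

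The immediate early transcription factors were mostly lower, by smaller amounts. Of 24 measured, 21 had a log2 fold change below 0 (against 44.2% of all genes), and the median was -0.19. At an unadjusted p below 0.05, 5 were lower and 0 higher (against 1.98% and 3.69% of all genes). Those 5 were Npas4 (-0.71), Egr3 (-0.61), Klf10 (-0.59), Srf (-0.43) and Junb (-0.39), and none passed adjustment, with an adjusted p of 0.255 or more. Npas4, a factor that neurons express after calcium entry, was counted at 36.0, 28.6 and 39.1 in flight and at 62.1, 63.6 and 45.9 on the ground. Egr3, a zinc finger factor, stood at 56.0, 74.3 and 88.1 against 118, 95.0 and 119. For both genes the groups did not overlap. Fos, the best known of these genes, gave no such difference, with 20.2 to 25.2 counts in flight and 20.01 to 31.4 on the ground, not far above the negative control. Egr1 was counted at 94.9, 81.5 and 98.9 in flight and between 65.1 and 175 on the ground.

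**Figure D2:**
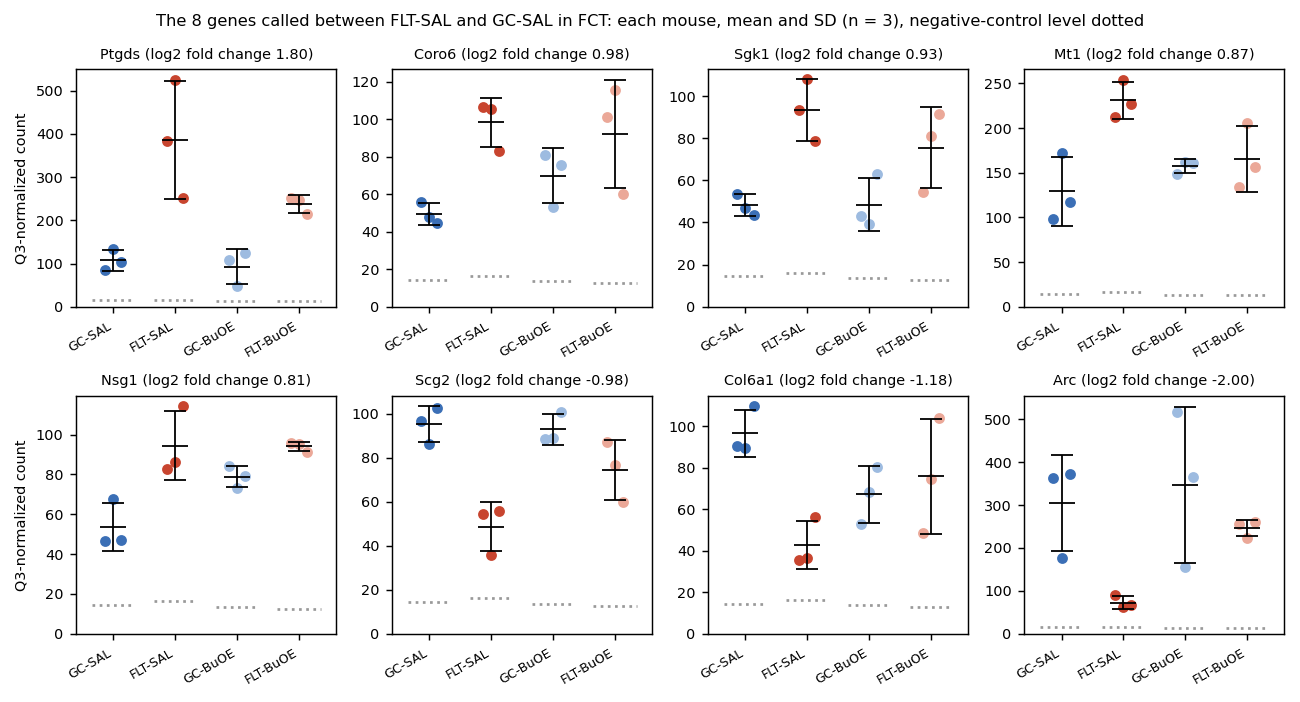
Q3-normalized counts (y axis, from 0) of the 8 called genes in FCT of every mouse of 4 groups, with mean and SD of 3 mice in black and the mean negative-control level of the group dotted. For each gene the 3 FLT-SAL points lie wholly above or wholly below the 3 GC-SAL points.

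Ptgds changed most among the genes that rose. It encodes the prostaglandin D synthase of the brain, which is made by oligodendrocytes and by the leptomeninges and also carries lipophilic molecules (chr2:25466709-25470046). The flight mice had 384, 524 and 250.5 counts and the ground mice 85.3, 133 and 102, so even the lowest flight mouse exceeded the highest ground mouse. Ptgds rose by 1.80 on the log2 scale (SE 0.21, adjusted p = 6.85e-07) and was called under each of the 25 alternatives of the fit. Ptgds also stands in the list of meninges and vessel wall. The other 16 genes of that list summed to 380 to 431 in flight and 414 to 490 on the ground. With Col6a1 also taken out, the remaining 15 genes summed to 324 to 396 in flight and 324 to 399 on the ground. That sum lacks both called members, 1 of each direction. The part of meningeal content in the rise of Ptgds was not tested. In all, 3 of 17 genes of that list passed an unadjusted p below 0.05 (17.6%, against 5.66% of all genes), Ptgds higher and Col6a1 and Mgp lower.

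Of the myelin genes, some were at higher levels in flight, while the median of the list was close to that of all genes. Mobp, a structural protein of central myelin (chr9:120149707-120181484), was counted at 528, 749 and 348 in flight and at 289, 324 and 285 on the ground, and Cldn11, which forms the tight junctions of the myelin sheath (chr3:31149920-31164324), at 85.2, 85.8 and 81.4 against 48.4, 53.4 and 48.3. Neither pair of groups overlapped. Both passed edgeR (adjusted p = 0.0244 and 0.0458) and neither passed limma (adjusted p = 0.112 for each). Of 22 measured genes of oligodendrocytes and myelin, 7 were higher and 0 lower at an unadjusted p below 0.05. All genes gave 3.69% higher and 1.98% lower. The median log2 fold change of 0.05 was close to that of all genes, with 14 above and 8 below 0 in limma and 11 each way in edgeR. The 7 also included Cnp (0.61), Mbp (0.53), Apod (0.79), Tspan2 (0.57) and Mag (0.53). Apod had 91.5, 238 and 77.8 counts in flight against 65.3, 90.2 and 54.1, with overlapping groups, and 0.30 on the log2 scale without FLT-SAL mouse 2. All 22 genes summed to 1797 to 2707 in flight and 1592 to 1849 on the ground. The 15 genes left without these 7 summed to 903 to 1101 in flight and 925 to 1065 on the ground. Because the higher members were taken out by their p, the smaller sum does not show that the list was level. Of 9 measured genes of oligodendrocyte precursors, 1 (Gpr17, -0.63) was lower and 0 were higher. Gpr17 stood at 1.26 times the negative control in flight.

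Astrocyte genes had a median log2 fold change of 0.20, with 19 of 23 above 0 (against 55.8% of all genes). At an unadjusted p below 0.05, 5 were higher and 0 lower (against 3.69% and 1.98% of all genes). Glul, the glutamine synthetase that recycles glutamate, was counted at 272, 415 and 244 in flight and 149, 213 and 211 on the ground, 0.68 on the log2 scale with an adjusted p of 0.132 in limma. Apoe, the main lipoprotein of the brain, stood at 175.5, 234 and 195 against 92.7, 178 and 131, with overlapping groups. Atp1b2 (0.48), Aldoc (0.49) and Sparcl1 (0.35) were the others. The marker Gfap had a log2 fold change of -0.21 and overlapping groups. The summed level of the astrocyte list was 1995.4 to 2660.1 in flight and 1707 to 1971 on the ground, whereas the microglial list had 1 gene higher (Itgam), 1 lower (Tyrobp) and a median of -0.04. Tyrobp stood at 1.12 times the negative control in flight, and Itgam at 1.44 times on the ground.

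Targets of the glucocorticoid receptor were mostly higher in flight. Of 21 measured, 10 were higher and 1 was lower at an unadjusted p below 0.05 (against 3.69% and 1.98% of all genes). A log2 fold change above 0 was found for 18 (against 55.8% of all genes). The median was 0.42, against 0.03 over all genes. Sgk1, the serum and glucocorticoid-regulated kinase that acts on ion channels and FoxO factors (chr10:21882184-21999903), was counted at 93.2, 108 and 78.7 in flight and at 53.7, 47.1 and 43.6 on the ground. It rose by 0.93 (SE 0.19, adjusted p = 0.0192), with no overlap. Mt1, a metallothionein that binds zinc and copper (chr8:94179082-94180327), had 212, 254 and 227 counts against 98.0, 172 and 118 and rose by 0.87 (SE 0.16, adjusted p = 0.011).

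Tsc22d4 (0.76), Tsc22d3 (0.70, the glucocorticoid-induced leucine zipper), Ddit4 (0.62, an inhibitor of mTORC1), Mt2 (0.49), Plin4 (0.63, a lipid droplet protein), Fkbp5 (0.49, a cochaperone of the receptor), Cdkn1a (0.43) and Sult1a1 (0.46) were the other higher members, with an adjusted p of 0.188 or more. Per1, which is also a clock gene, was the lower one, at 72.0, 72.2 and 75.1 in flight and 102, 95.7 and 84.8 on the ground. The list summed to 1240.1 to 1410.1 in flight and 1018 to 1141 on the ground. In the list of metallothioneins with their zinc-sensing factor and a zinc exporter, Mt1 and Mt2 were the 2 of 5 genes with an unadjusted p below 0.05. Both were higher, as were 3.69% of all genes at that p.

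Of 4 genes in a list around the cold-inducible RNA-binding proteins Rbm3 and Cirbp, 2 were higher at an unadjusted p below 0.05 (against 3.69% of all genes). Neither passed adjustment. Rbm3 was counted at 96.6, 104 and 115 in flight and at 65.3, 69.1 and 61.2 on the ground (log2 fold change 0.68, SE 0.15, adjusted p = 0.0753), and Cirbp at 41.7, 62.9 and 65.2 against 29.5, 33.0 and 36.5 (0.74, adjusted p = 0.225). The groups did not overlap for either gene (7.41% of all genes were higher without overlap). Srsf5, a splicing factor of the same list, had -0.19. Rtn3, the remaining gene of the list, had 0.26.

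Heat shock proteins and their cochaperones, which fold and refold proteins, were mostly lower. Of 24 measured, 20 had a log2 fold change below 0 (against 44.2% of all genes), and the median was -0.23. At an unadjusted p below 0.05, 7 were lower and 0 higher (against 1.98% and 3.69% of all genes). Hsp90b1, the HSP90 of the endoplasmic reticulum, was counted at 55.5, 57.2 and 65.7 in flight and at 89.5, 106 and 75.3 on the ground. Hspa8, the constitutive HSC70, stood at 220.1, 239 and 197 against 304, 271 and 274. Cryab (-0.62), Hsf1 (-0.48), Stip1 (-0.44), Hsph1 (-0.37) and Dnajb5 (-0.36) completed the 7, and no adjusted p was below 0.384.

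Genes of the endoplasmic reticulum stress response differed in both directions. Pdia4, a disulfide isomerase (chr6:47796141-47813430), was counted at 32.6, 33.6 and 31.5 in flight and at 46.3, 50.2 and 64.7 on the ground and passed edgeR only (adjusted p = 0.043). Among 21 genes of the endoplasmic reticulum stress response, 5 were lower (Pdia4, Hsp90b1, Pdia6, Calr and Xbp1) and 2 higher (Dnajb9 and Chac1), with 9 above and 12 below 0 and a median of -0.07. These genes made up 33.3% of the list, against 5.66% of all genes at an unadjusted p below 0.05.

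Promoter sequences were read for members of the lists of activity, heat shock and glucocorticoid genes, to show which known elements lie close to their starts. RefSeq sequences (GRCm38.p6) were at hand for 12484 of the measured genes, with 15604 starts, and for 6 of the 8 called genes. In the 250 bases before a start, on both strands, the cAMP response element TGACGTCA stood in 2.2% of all those promoters and in 12.9% of 31 promoters of activity-induced effector genes (Dusp1, Pcsk1, Plk2 and Scg2, of which Scg2 alone was lower at an unadjusted p below 0.05). The CArG box, which binds serum response factor, stood in 1.17% of all and in 17.2% of 29 promoters of immediate early transcription factors (Egr2 and Srf). Starts of 1 gene count separately here. Counted by gene, the box stood before 2 of 20 of these factors, against 172 of 12484 measured genes. The heat shock element (GAANNTTC or TTCNNGAA) stood in 11.0% of all and in 30.8% of 26 promoters of heat shock genes, which belong to 7 genes of which Hsph1 alone was among the lower ones. The full palindrome of the glucocorticoid response element stood in 2 promoters of measured genes, 1 of which is a start of Sgk1. In the sequences that follow, 5′ to 3′, capitals mark the element. Where the GENCODE annotation places the element inside an exon of another transcript of the gene, only 30 bases around it are given.
Scg2, chr1:79440076-79440105, minus strand: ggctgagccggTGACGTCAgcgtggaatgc
Srf, chr17:46556176-46556412, minus strand: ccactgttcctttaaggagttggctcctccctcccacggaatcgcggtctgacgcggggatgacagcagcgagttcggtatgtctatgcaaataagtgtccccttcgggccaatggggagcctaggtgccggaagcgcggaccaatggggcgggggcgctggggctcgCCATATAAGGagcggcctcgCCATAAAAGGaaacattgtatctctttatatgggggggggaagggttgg
Hsph1, chr5:149636351-149636380, minus strand: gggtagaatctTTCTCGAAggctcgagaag
Sgk1, chr10:21993640-21993889, plus strand: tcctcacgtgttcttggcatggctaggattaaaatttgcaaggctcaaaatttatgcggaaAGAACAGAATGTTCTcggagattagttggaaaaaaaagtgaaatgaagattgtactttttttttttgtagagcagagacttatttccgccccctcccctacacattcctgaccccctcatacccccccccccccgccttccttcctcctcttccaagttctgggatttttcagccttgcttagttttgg

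The element of Scg2 ended 60 bases before the RefSeq start, the nearer of 2 CArG boxes of Srf 52, that of Hsph1 46 and that of Sgk1 174. The Sgk1 stretch lies before 1 of 6 starts of the gene, within introns of its longer transcripts. Matches are given as positions of letters, without a claim that a factor bound there.

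**Figure D3:**
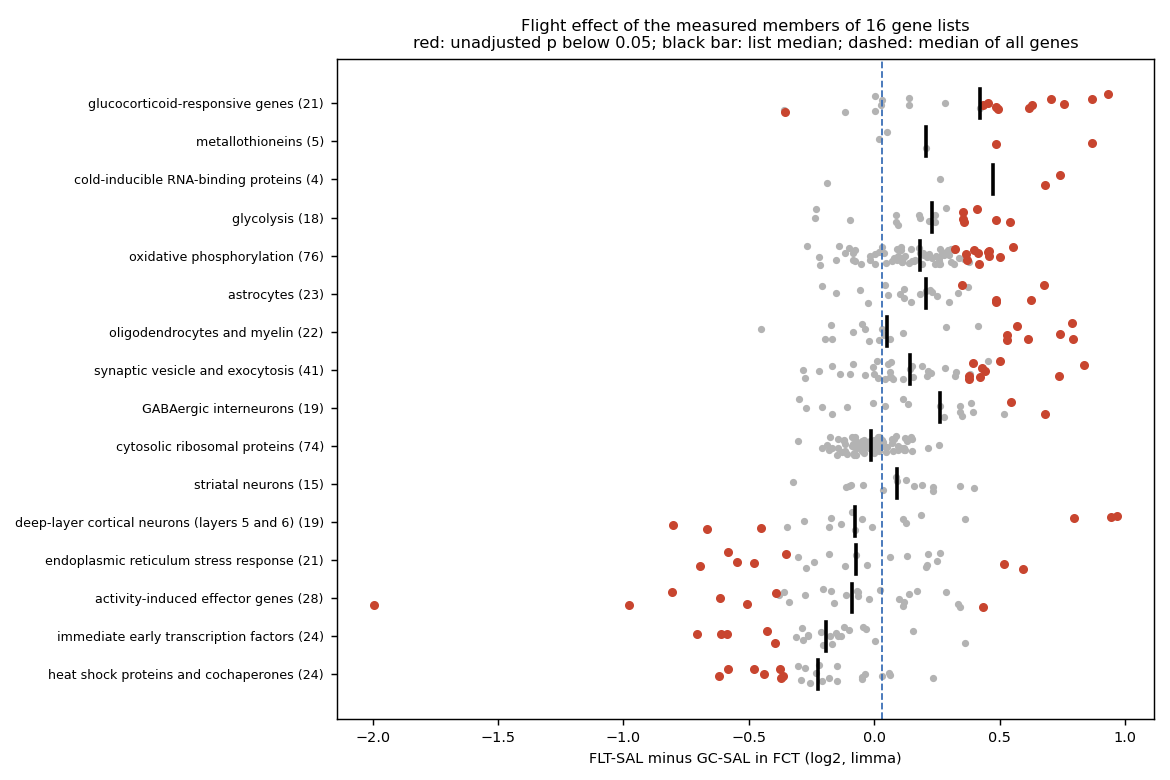
FLT-SAL minus GC-SAL in FCT (x axis, log2) of the measured members of 16 gene lists, whose sizes are in parentheses. Red points passed an unadjusted p below 0.05, black bars are list medians and the dashed line is the median of all genes, 0.03. Glucocorticoid-responsive genes stand to the right, immediate early and heat shock genes to the left, and ribosomal proteins around 0.

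Genes of energy metabolism stood slightly higher in flight. Of 76 subunits of oxidative phosphorylation measured, 62 were above 0 (against 55.8% of all genes), and the median was 0.18. At an unadjusted p below 0.05, 11 were higher and 0 lower (against 3.69% and 1.98% of all genes). The largest were Ndufa6 of complex I (0.56), counted at 66.9, 57.9 and 58.0 against 36.9, 45.5 and 41.2, Ndufa5 (0.50) and Atp5g3 of the ATP synthase (0.45). Of 18 glycolytic enzymes 6 were higher and 0 lower, with a median of 0.23. Pfkm, the muscle-type phosphofructokinase (0.54), had 101, 111 and 108 counts in flight and 63.2, 82.4 and 74.2 on the ground, and Gapdh (0.35) had 451, 512 and 469 against 351, 391 and 378. None passed adjustment. The 74 cytosolic ribosomal proteins gave 0 genes in either direction and a median of -0.01.

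Coro6 and Nsg1 were the remaining genes that rose. Coro6, a coronin that binds actin (chr11:77462411-77470484), was counted at 106, 106 and 83.2 in flight and at 55.8, 47.9 and 44.7 on the ground, without overlap, and rose by 0.98 (SE 0.19, adjusted p = 0.012). Nsg1, a protein of neuronal endosomes that takes part in the recycling of receptors (chr5:38137192-38159907), had 82.9, 86.5 and 114 counts against 46.3, 67.5 and 47.1 and rose by 0.81 (SE 0.17, adjusted p = 0.0234). With edgeR on the 6 saline AOIs alone, an analysis added after the data were seen, Nsg1 was the 1 gene of the 8 that was not called. Of 25 alternatives of the fit, Arc was called under 24, Scg2 and Col6a1 under 21 and Mt1 under 18. Sgk1 and Coro6 were called under 17 and Nsg1 under 16. Mt1, Sgk1, Coro6 and Nsg1 were not called with DESeq2, after background subtraction, with depth as a covariate or without the trend of variance on level.

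Some proteins of synaptic vesicles were higher, as were most genes of the list of all neurons, whereas the list of excitatory neurons was split. Cplx1, or complexin 1, which holds SNARE complexes ready for fast release (chr5:108518554-108550024), was counted at 429, 523 and 296 in flight and at 194, 220 and 272 on the ground (log2 fold change 0.84, adjusted p = 0.0553 in limma and 0.0184 in edgeR). Of 41 vesicle and exocytosis genes, 9 were higher and 0 lower at an unadjusted p below 0.05 (against 3.69% and 1.98% of all genes). Among the 9 were Vamp1 (0.74), Sv2a (0.50) and Rab3a (0.43), and the median of the list was 0.14. Snap25, a SNARE protein of all neurons, had a log2 fold change of 0.42. The list of 10 genes of all neurons, to which Snap25 also belongs, had a median of 0.27 with 8 above 0, and it summed to 1697 to 2031.9 in flight and 1545.6 to 1622 on the ground. The list of 10 genes of excitatory neurons had a median of 0.04, with 5 above and 5 below 0. At an unadjusted p below 0.05, 1 of them was higher and 0 lower. The part of neuron content in the vesicle and energy genes was not tested. Sncb, or beta-synuclein, had 193, 214 and 216 counts against 134, 131 and 137 (0.63, adjusted p = 0.0728). The vacuolar ATPase, which acidifies vesicles and lysosomes, had 4 of 18 genes higher and 0 lower, with a median of 0.16.

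Over 41 potassium channels the median log2 fold change was 0.01, with 22 above and 19 below 0. At an unadjusted p below 0.05 there were 3 higher and 1 lower (9.76%, against 5.66% of all genes). Kcna1 was counted at 99.5, 122 and 100.3 in flight and 64.2, 55.7 and 73.0 on the ground (0.73, adjusted p = 0.0792), and Kcna2 at 56.2 to 75.04 against 34.1 to 51.01 (0.61). Both encode potassium channels found beside the nodes of myelinated axons. Kcnip3, a calcium-binding subunit and repressor, was the lower one (-0.66).

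Col6a1 was the third gene that fell. It encodes the alpha 1 chain of collagen VI (chr10:76708792-76726168) and was counted at 35.4, 36.4 and 56.2 in flight and at 90.6, 89.5 and 109 on the ground. The groups did not overlap, and Col6a1 fell by 1.18 (SE 0.20, adjusted p = 0.00206). Among 31 collagens, 22 were below 0 (against 44.2% of all genes), and the median was -0.12. At an unadjusted p below 0.05, 5 were lower and 0 higher (against 1.98% and 3.69% of all genes). The 5 were Col6a1, Col5a1, Col5a2, Col4a2 and Col11a1. Col5a1 had overlapping groups, at 36.0 to 52.9 against 50.2 to 88.5, and 5 of the 31 collagens were near background.

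Genes that mark the deep layers of the cortex differed in both directions. Etv1, a factor of layer 5 neurons, was counted at 88.6, 87.9 and 83.2 in flight and at 41.1, 56.5 and 51.8 on the ground. Tshz2 (0.97) and Dmrt2 (0.94) were also higher, and Tshz2 passed edgeR (adjusted p = 0.0277). Dmrt2 stood at 0.92 times the negative control on the ground and at 1.63 times in flight. Syt6 (-0.80), Hs3st4 (-0.67) and Nxph3 (-0.45), which are known from layer 6, were lower. Syt6 had 27.4 to 30.02 counts in flight against 65.3, 37.7 and 54.1. Over 19 deep-layer genes the median was -0.08, with 3 higher and 3 lower at an unadjusted p below 0.05 (31.6%). Over 15 genes of the upper layers it was 0.04, with 1 higher and 2 lower (20%). All genes gave 5.66%, with 3.69% higher and 1.98% lower. Layer genes moved within the same AOIs that differed in area, and the part of the placement of the AOIs was not tested. Of 15 striatal markers, 0 differed in either direction at an unadjusted p below 0.05, with 10 above 0 and a median of 0.09. Of 6 choroid plexus markers 1 was lower and 0 higher at that p, with 4 above 0 and a median of 0.13. Over all genes 55.8% were above 0 and the median was 0.03. The part of neighbouring tissue was not tested.

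Inhibitory interneurons were described as a list only. Its 19 genes had a median log2 fold change of 0.26, with 13 above 0 (68.4%, against 55.8% of all genes).

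A gene was marked as near background where its mean in the higher group was below 1.5 times the negative-control level of that group. This held for 2119 genes (13.4%). Because the mark uses the higher group, a gene that differs can escape it through that group alone, and the mark is not a limit of detection. Of 618 olfactory receptors, whose known site is the nasal epithelium, 190 (30.7%) were near background by this rule, and their median level was 1.63 times the negative control in GC-SAL and 1.47 times in FLT-SAL, against 1.99 and 1.79 for all genes. Of 49 keratins and keratin-associated proteins, 17 were near background. The olfactory receptors had a median log2 fold change of 0.02, with 13 higher and 5 lower at an unadjusted p below 0.05 (2.91%).

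Of the 26 genes called by edgeR, 5 had 1 ground AOI far above the other saline AOIs. Its value was 2.04 (Abhd15) to 6.03 (Bach2) times the next highest. In GC-SAL mouse 1, Gm46238 was counted at 143, Bach2, a factor of B and T cells, at 152 and Ms4a1, the B cell antigen CD20, at 115, whereas no other saline mouse exceeded 28.3, 25.2 and 30.3 for these genes. Gm51999 had 127 counts in GC-SAL mouse 2 and at most 25.7 elsewhere, and Abhd15 had 62.4 in GC-SAL mouse 3 and at most 30.6 elsewhere. Limma called none of them. Without Ms4a1 the blood markers summed to 183 to 204 in flight and 162 to 218 on the ground.

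The other 13 genes that passed edgeR only had values that followed the groups more evenly. They were Cplx1, Lrr1, 4930578G10Rik, Mobp, Cldn11 and Tshz2, which were higher, and Exd2, Tmem178, Igsf21, Homer1, Nnat, Pdia4 and Syt6, which were lower. Lrr1, a substrate receptor of a ubiquitin ligase (chr12:69168814-69179009), had 5513, 4955 and 5337 counts in flight and 2295, 3441 and 3484 on the ground. Its ground mean was 212 times the negative control and ranked 4 among all genes. Whether its probe reads Lrr1 alone at this level was not tested. Exd2, a nuclease (chr12:80463095-80500227), had 46.9, 50.7 and 58.5 against 90.6, 104 and 84.8. Nnat, or neuronatin, a small membrane protein from an imprinted gene, overlapped between groups, at 36.6, 58.6 and 78.7 against 114, 162 and 68.3.

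Pde5a, a phosphodiesterase that the study names for this region and that is therefore not independent evidence, had 25.01 to 33.2 counts in flight and 17.3 to 20.01 on the ground, with 0.59 on the log2 scale and an adjusted p of 0.738. By fold, 5 genes outside these calls were among the 10 largest changes each way with p below 0.01 and no overlap. Dmrt2 (0.94), Fam187b (0.86) and Txndc17 (0.84), a thioredoxin-like protein, were higher, and Emp1 (-0.82), a membrane protein of epithelia, and Clec2j (-0.74) were lower (Emp1 at 1.03 times the negative control in flight), with an adjusted p of 0.214 or more. Fam187b had 32.6, 30.7 and 21.6 counts in flight and 19.0, 16.5 and 10.6 on the ground, where it stood near the negative control. On the ground Txndc17 stood at 1.21 times the negative control and Pde5a at 1.27 times.

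Flight against ground was also measured in FCT of BuOE-treated mice, which shared no mouse with the saline comparison, and 3 genes (0.019%) were called there, with 7.17% of genes at an unadjusted p below 0.05. Ptgds was again higher, by 1.45 on the log2 scale (251.6, 247 and 214 counts in flight against 107, 48.2 and 124, adjusted p = 0.000362). The other 2 were Junb, which was higher, and Gm1043. Sgk1 had a log2 fold change of 0.63 there, Coro6 0.36, Nsg1 0.25, Scg2 -0.33 and Mt1 0.05. Arc, with 256, 224 and 260.1 in flight and 518, 156 and 366 on the ground, had -0.33. Col6a1 had 0.13. The difference between both flight effects, tested as an interaction, did not pass adjustment for any of the 8 genes. It was largest for Arc (-1.67, SE 0.33, adjusted p = 0.0683) and for Col6a1 (-1.31, SE 0.28, adjusted p = 0.158).

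The interaction was called for 1 gene of 15782 (0.00634%, against 5.43% at an unadjusted p below 0.05), the immediate early gene Junb (chr8:84974484-84978718). In saline mice Junb was counted at 63.5, 52.9 and 61.2 in flight and at 94.8, 68.3 and 73.0 on the ground, and in BuOE mice at 140.1, 145 and 133 in flight and at 82.2, 59.3 and 63.7 on the ground. Flight mice were thus below ground mice with saline and above them with BuOE, and the interaction was -1.42 (SE 0.23, adjusted p = 0.0025). Junb was still called in the interaction when any 1 of the 12 mice was left out. Without FLT-BuOE mouse 1 there were 3 calls in the interaction, and without FLT-BuOE mouse 2 there were 6 for flight with BuOE. Of the lists, heat shock genes had a median log2 fold change of -0.28 with BuOE, with 10 of 24 lower and 0 higher at an unadjusted p below 0.05 (5.27% of all genes were lower there), and glucocorticoid-responsive genes 0.13, with 4 of 21 higher (1.9% of all genes). Rbm3 (0.70) and Cirbp (0.87) were higher there as well. Immediate early transcription factors had a median of -0.06, with 3 higher and 4 lower. Activity-induced effector genes had a median of -0.20, with 4 above and 24 below 0, and 3 of 28 were lower at an unadjusted p below 0.05. Medians with BuOE were -0.03 for oxidative phosphorylation, -0.02 for astrocytes, 0.01 for vesicle genes, 0.07 for myelin and 0.10 for glycolysis. The median of all genes was -0.04 there, with 6765 genes above and 9017 below 0.

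**Figure D4:**
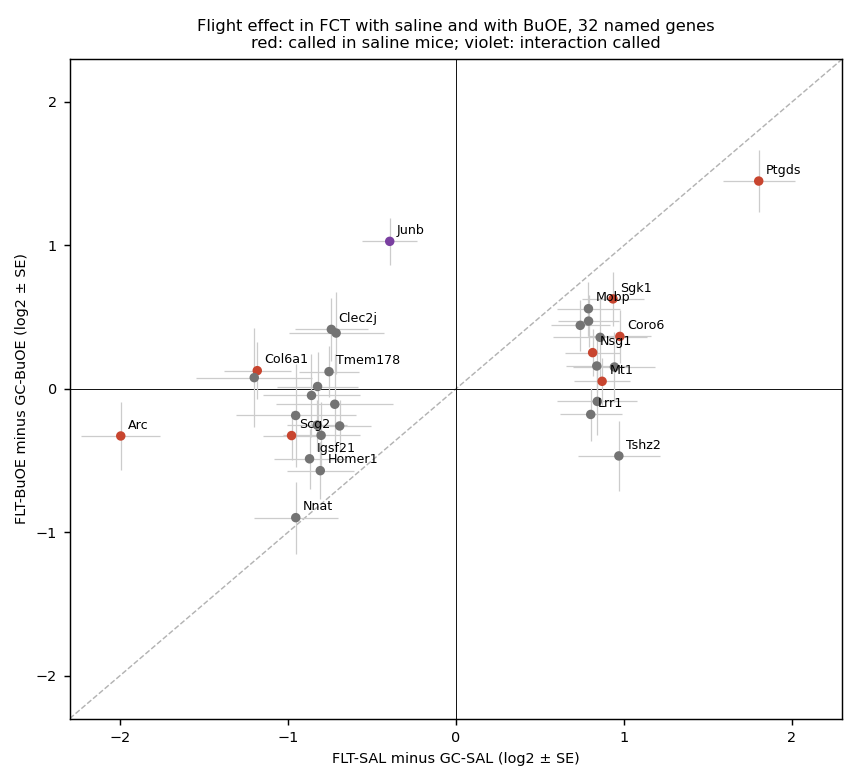
Log2 difference of flight and ground (± SE) in FCT of saline mice (x axis) and of BuOE mice (y axis) for 32 genes named by the calls, by fold or by the interaction. Ptgds lies near the dashed line of equal values at 1.80 and 1.45, Arc at -1.996 and -0.33, and Junb (violet) at -0.39 and 1.03.

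The flight effect in FCT was compared with that in the other cortical region (CT) of the same saline mice, by the difference between both AOIs of a mouse. The CT area of GC-SAL mouse 1 held 140 nuclei in 146259 square μm, against 578 and 500 in the other ground mice and 549 to 598 in the flight mice. The flight effect differed for 6 genes (0.038%, limma on within-mouse differences), and 4.27% of genes had an unadjusted p below 0.05. Nptx1 was lower in flight in FCT (149, 249 and 227 counts against 308, 306 and 259) and higher in CT (210.3, 271 and 281 against 89.7, 164 and 122). Hs3st4, an enzyme that modifies heparan sulfate, showed the same pattern, at 65.2, 81.5 and 76.4 against 144, 100.5 and 114 in FCT and at 48.0, 70.5 and 73.4 against 31.5, 38.8 and 44.7 in CT. Igsf21, a synaptic adhesion protein, and Tmem178 were also lower in FCT and had log2 fold changes of 0.54 and 0.29 in CT. Col6a1 had -1.18 in FCT and -0.09 in CT. Kcnh5, a potassium channel subunit, was the reverse, with 0.55 in FCT and -0.80 in CT. The count depended on single mice. Leaving out a flight mouse gave 2 genes for mouse 1, 1 for mouse 2 and 8 for mouse 3, of which 3 were among the 6. Leaving out a ground mouse gave 3 genes for mouse 1, 11 for mouse 2 and 10 for mouse 3, of which 3, 6 and 2 were among the 6, and leaving out GC-BuOE mouse 1 or 3 gave 4.

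For these genes the ground AOIs of FCT and CT differed from each other more than the flight AOIs did. Ground means of Nptx1, Hs3st4, Igsf21, Tmem178 and Col6a1 were higher in FCT than in CT, and for Kcnh5 lower. For the other called genes no difference between regions passed adjustment. Arc had -1.996 in FCT and -1.56 in CT, Ptgds 1.80 and 1.56, Sgk1 0.93 and 1.18, and Mt1 0.87 and 0.62, whereas Scg2 had -0.98 and -0.04 (adjusted p of the difference 0.102) and Coro6 0.98 and 0.05 (adjusted p of the difference 0.207). The regions share mice and slides.

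**Figure D5:**
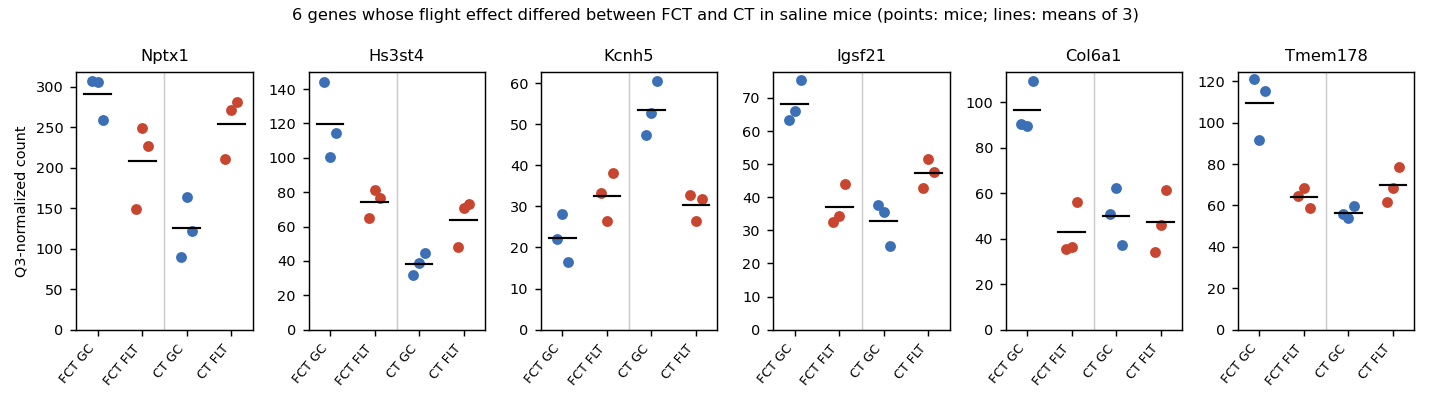
Q3-normalized counts (y axis, from 0) in FCT and CT of the 3 GC-SAL mice (blue) and the 3 FLT-SAL mice (red) for the 6 genes whose flight effect differed between regions, with lines at the means. The FCT values of GC-SAL stand above the other 3 sets for Hs3st4, Igsf21, Col6a1 and Tmem178, and for Nptx1 they overlap with FLT-SAL in CT.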

How the data were processed

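The authors sequenced probe tags of GeoMx digital spatial profiling and deposited, for every AOI, the deduplicated count of each probe (GeoMx NGS Pipeline 2.3.4, per the file headers). They also deposited, for each region, a table of the Q3-normalized signal of every gene and of the negative-control value. No genome alignment was involved, since tags name probes. Their tables of log2 fold changes and p-values were not used.

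Groups came from the sample labels. The 12 FCT AOIs (4 groups of 3 mice) entered 1 limma fit (version 3.58.1, R 4.3.3) on log2(Q3-normalized count + 1) with empirical Bayes moderation and a trend of variance on level. All 15782 p-values of a contrast were adjusted together by Benjamini-Hochberg. Fold changes on this scale understate those of low genes. The interaction and the difference between FCT and CT used adjusted p alone. Whole counts were recovered for 99.98% of values (within 0.02 of a count) and gave 15779 genes, each equal to 1 probe, for edgeR 4.0.16 and DESeq2 1.42.0. Fits were tested on simulated data. The labels number replicates, and the methods of the study place 1 section of each mouse on the slide of its group. FCT and CT areas with the same number were taken as 1 mouse.

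The genes and lists were chosen with earlier results of these data known. Named genes are those called by limma or edgeR, those named for FCT in the study, the 10 largest changes each way with p below 0.01, no overlap and no mark of background, and up to 4 members of each list with the smallest p. Further members, Junb, Gm1043, Kcnh5, collagens and other families by symbol were named after their values were seen. In numbered mice of flight and ground, deviations did not go together (correlations -0.052 to -0.0075), so numbers do not pair them. Some members of the lists are not reported here by name.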

Additional observations from a re-analysis of the deposited data

Results flagged for a closer look

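The flight effect of Junb in FCT differed between saline and BuOE mice, by -1.42 on the log2 scale (effect in saline minus effect with BuOE, limma interaction, adjusted p = 0.0025). All 3 saline flight mice were below the 3 saline ground mice, and all 3 BuOE flight mice were above the 3 BuOE ground mice.

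The flight effect in saline mice differed between FCT and CT for 6 genes (effect in FCT minus effect in CT, limma on differences within mice). The differences were -1.56 for Nptx1 (adjusted p = 1.41e-06), -1.38 for Hs3st4, 1.34 for Kcnh5, -1.41 for Igsf21, -1.05 for Tmem178 and -1.09 for Col6a1. Groups of 3 are too small for a test of single outlying mice.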

How the results depend on the processing

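Of 8 genes called for flight in saline mice, other pseudocounts, a filter on low values and no fold threshold gave 8 to 10. Without the mean-variance trend 2 were called, with edgeR 26 (TMM) or 27 (upper quartile), with DESeq2 5, after background subtraction 4, after quantile normalization 14, with depth as a covariate 3, on the 6 saline AOIs alone 17 and at an adjusted p below 0.1 16. edgeR on those 6 AOIs, chosen after seeing the data, called 21. Leaving out 1 mouse gave 2 to 18. With the replicate number as a block 19 were called. Numbers do not pair the mice, so this is given for completeness. For flight with BuOE (3 genes) the counts were 0 without the trend (1110 genes at an unadjusted p below 0.05), 1 with DESeq2 and 2 to 6 without 1 mouse. For the interaction (1 gene) they were 0 without the trend (850 genes) and with depth (624 genes), 3 with edgeR under both scalings, with the replicate block and after quantile normalization, and 1 to 3 without 1 mouse. For FCT against CT (6 genes) they were 1 to 11. The cause of these changes was not tested. Of 110 genes named with values, 106 kept their direction under every alternative. Several alternatives cannot change a fold change, namely the filter, the fit without the trend, the replicate block and limma on the 6 saline AOIs. The same holds for leaving out a BuOE mouse in limma. Many of these genes were also named for a small p in these data. The count is therefore no measure of how firm the directions are. With depth as a covariate the log2 fold change turned to 0.247 for Egr1 and 0.0677 for Gfap. Without 1 mouse it ranged from -0.637 to 0.0686 for Egr1, from -0.176 to 0.137 for Fos and from -1.31 to 0.153 for Gm51999. The background-subtracted values had a median log2 fold change of -0.087 over all genes, against 0.031.

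Within saline mice depth was higher in the flight AOIs, and low genes rest on few counts. With 3 mice per group on 1 slide each, a gene that missed the threshold is not shown to be unaffected.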

Other observations

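Clock genes, whose feedback loops keep daily time, gave 1 higher gene (Dbp, 55.5, 48.6 and 58.0 counts in flight against 35.8, 42.4 and 38.9 on the ground) and 1 lower gene (Per1) of 21 at an unadjusted p below 0.05, with a median log2 fold change of 0.11. The share was 9.52% of clock genes, against 5.66% of all genes. Antioxidant and glutathione enzymes gave 4 higher genes of 30 and 0 lower (13.3%), with a median of 0.16. Prdx6 had 37.7, 45.0 and 35.1 counts against 17.9, 33.0 and 28.2, and Sod2, the superoxide dismutase of mitochondria, 80.0, 99.3 and 82.7 against 67.4, 56.5 and 69.5. None passed adjustment.

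The lists for FoxO signalling and for pantothenate and coenzyme A synthesis are pathways that the study took from these samples, so they are not independent evidence. Of 67 FoxO genes 6 were higher at an unadjusted p below 0.05 (against 3.69% of all genes), among them Sgk1, Gabarapl1 (0.46) and Sod2 (0.43). The 4 lower ones (against 1.98% of all genes) included Homer1 and Igf1r (-0.50), and the median was 0.03. Of 14 pantothenate genes 2 were higher, Bcat1 (0.58) and Pank3 (0.58), with a median of 0.11. At an unadjusted p below 0.05, receptors for glutamate gave 1 higher and 2 lower genes of 23 (13.04%, median 0.01), receptors for GABA 1 and 1 of 13 (15.4%, median 0.01), copines 0 of 9 and endothelial genes 0 and 1 of 15 (6.67%), against 5.66% of all genes.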
